A study of Helianthemum marifolium subsp. andalusicum and Helianthemum marifolium subsp. marifolium and Helianthemum marifolium subsp. molle with 16 samples.

Results

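In leaves of Helianthemum marifolium, 136 assembled transcript clusters stood lower in the subspecies molle than in every library of the other 3 subspecies. Levels are given in CPM (counts-per-million), the count of a cluster scaled by the total count of its library. A cluster was a member when its mean over the 16 libraries was 1 CPM or more and the highest of the 4 molle libraries lay below the lowest of the 12 others. Of 100462 counted clusters, 32213 reached that mean, and the members made up 0.422% of these. In 12 members no read was counted in any molle library, and the other 124 were detected in molle at a reduced level. The values that chose the members were these same CPM values, so the difference between molle and the rest is given below as a description and not as a tested finding.

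Helianthemum is a genus of rock roses, mostly low shrubs of dry and open ground around the Mediterranean, and the samples were poly-A RNA from adult leaves of greenhouse plants raised from seed and taken on day 446 after sowing. The groups were molle and, set against it, andalusicum, marifolium and origanifolium, with 4 libraries each and no treatment named in the labels. All groups shared the greenhouse, the age and the leaf position. The organism field names origanifolium as a species of its own, while the design text counts it among the subspecies. A code in the titles joins the libraries in pairs within a subspecies, and for molle it joins libraries 22 and 25, called the first molle code here, and libraries 27 and 29, called the second. The sources used here do not say what it marks. Nothing in the labels says that the libraries came from separate plants, so spreads and p-values measure how these libraries vary, and some of that variation may be technical.

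A messenger RNA level in a leaf reflects both how strongly a gene is read and how fast its transcript is degraded, and it is averaged over epidermis, mesophyll and vascular cells. In such bulk tissue, fewer cells of a type and less RNA per cell cannot be told apart. The clusters come from transcripts assembled without a genome, where copies of a gene that differ in sequence can be built as separate transcripts and a read is counted for the transcript it matches. The files pair no gene names with clusters, so no function is given for any member, and the leaf identity of the samples was not checked against marker genes. Identifiers are printed for 2 members, and the others are named by their rank in level or by the length of their transcript.

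Library totals ran from 22170314 counts in origanifolium 31 to 34121011 in molle 22, so the deepest library was a molle one. A floor of 3 counts over the 4 molle libraries together corresponds to 0.0244 CPM. It covers counting error only. Marifolium 12 and 18 held 1.60% and 2.52% of their counts in 6240 clusters that had over 95% of their counts in this pair. No other library held more than 0.00570% of its counts there, which follows from how these clusters were picked. The same screen is not given for other pairs of libraries. None of the 136 members (0) was among these clusters, and the rule, which needs counts in all 12 others, leaves little room for any. Leaving out both libraries, which makes the rule easier to meet, gave 206 members, 19 of them absent and 187 reduced, and 134 of the 136 remained.

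The rule was met about as often in each subspecies, but with different depths of reduction. It found 136 clusters in molle, against 144 in andalusicum (0.447% of clusters of 1 CPM or more), 149 in marifolium (0.463%) and 148 in origanifolium (0.459%). Full absence was seen in 12 of the clusters lowest in molle, against 16 in andalusicum, 34 in marifolium and 2 in origanifolium. The median cluster lowest in molle stood at 22.3% of the mean of the other libraries. The corresponding medians were 18.0% in andalusicum, 13.95% in marifolium and 48.6% in origanifolium. The opposite pattern, with all 4 libraries above the other 12, was more frequent in each subspecies, at 216 clusters in molle, 356 in andalusicum, 176 in marifolium and 415 in origanifolium. These counts share libraries between subspecies, and the differences between them were not tested.

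The set has edges on both thresholds. The members of lowest mean stood at 1.19, 1.19 and 1.25 CPM over 16 libraries, and the nearest clusters outside stood at 0.999, 0.845 and 0.761 CPM. The members of narrowest separation had a lowest other library 1.0010, 1.0046 and 1.0047 times the highest molle library. The nearest clusters outside had ratios of 0.9990, 0.9984 and 0.9973.

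The strongest absence was in Cluster-3823.41664, which was abundant in every other library. It had 0 counts in molle 22, 25, 27 and 29. It stood at 64.5, 45.4, 96.1 and 75.3 CPM in andalusicum, at 159, 69.2, 84.4 and 121 CPM in marifolium and at 55.7, 41.2, 39.4 and 55.1 CPM in origanifolium. All 12 of these libraries were thus far above the molle floor, and marifolium was the highest group. The mean of the 12 others was 75.5 ± 35.5 CPM (SD), at least 3098-fold above the floor of the 4 molle libraries.

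Absent member 2, a cluster of 3 transcripts with a longest length of 1363 nt, was also low in andalusicum. It had 0 counts in all 4 molle libraries. It stood at 2.18, 0.161, 3.16 and 0.0306 CPM in andalusicum, at 31.4, 19.0, 26.6 and 50.8 CPM in marifolium and at 27.6, 3.97, 34.5 and 25.2 CPM in origanifolium. The andalusicum values did not overlap those of marifolium or origanifolium, and andalusicum 8 held only 1 count. Absent member 3 varied within every other subspecies. Molle had 0 counts, while the level was 17.2, 12.8, 8.17 and 3.67 CPM in andalusicum, 28.6, 5.13, 33.0 and 9.07 CPM in marifolium and 7.94, 11.55, 0.0760 and 0.936 CPM in origanifolium. Origanifolium 38 and 39, which share a title code, were its lowest libraries outside molle.

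Absent members 4 and 5 stood at lower levels in the 12 others. Absent member 4 had 0 counts in molle and was of similar level in the other groups, at 13.6, 8.96, 10.99 and 10.6 CPM in andalusicum, 6.71, 11.4, 22.5 and 6.92 CPM in marifolium and 3.88, 8.27, 9.24 and 8.43 CPM in origanifolium. Absent member 5 had 0 counts in molle and a graded order elsewhere, with 0.935, 0.548, 1.97 and 2.14 CPM in andalusicum, 4.40, 6.09, 5.23 and 2.69 CPM in marifolium and 16.1, 5.65, 6.73 and 11.6 CPM in origanifolium. Its andalusicum libraries lay below all 8 libraries of marifolium and origanifolium.

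**Figure D1:**
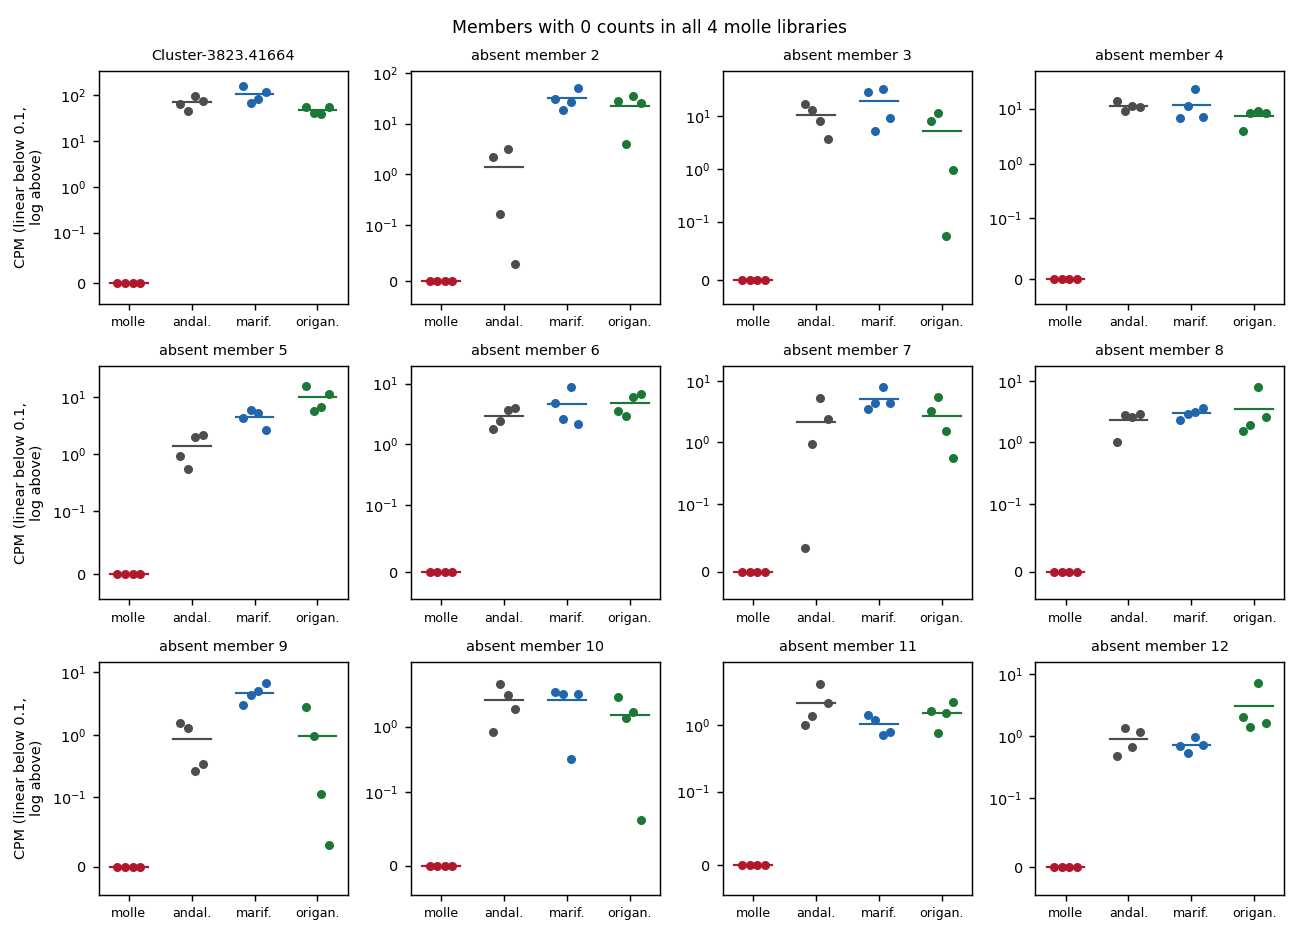
CPM in each library (points) and the mean of each subspecies (lines) for the 12 members with 0 counts in molle, one panel a member in order of level, on an axis that is linear below 0.1 CPM and logarithmic above. All 4 molle points lie at 0 in each panel, while Cluster-3823.41664 lies between 39.4 and 159 CPM in the 12 others and absent member 2 drops to 0.0306 CPM in andalusicum.

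Over the 12 absent members, the mean of the 12 others ran from 1.58 to 75.5 CPM with a median of 3.72 CPM, and set against the molle floor they were at least 65.0-fold to 3098-fold lower in molle by the mean. Single libraries came much nearer to the floor. In 7 of the 12, the highest of the other libraries exceeded the lowest by 10-fold or more. The lowest other library belonged to andalusicum in 6 members, to origanifolium in 5 and to marifolium in 1. The group with the highest mean was marifolium in 6, origanifolium in 4 and andalusicum in 2. Absence with reads in all 12 others was rare among clusters of this level: of 21953 clusters of 1 CPM or more with a count in each of the 12 others, 12 had none in molle. Absence from molle whatever the other libraries held was more frequent, at 1774 clusters of 1 CPM or more.

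The 124 reduced members ran from traces to 69.0% of the level elsewhere. By group means, 22 stood in molle below 5% of the mean of the 12 others, 13 between 5% and 10%, 24 between 10% and 25%, 42 between 25% and 50% and 23 between 50% and 75%. The median was 26.4%, a 3.78-fold lower level in molle. All clusters of 1 CPM or more with a count in each of the 12 others had a median of 92.1%. The gap between the groups was narrow in most members. The lowest of the 12 others exceeded the highest molle library by 1.1-fold or more in 84, by 1.5-fold or more in 27, by 2-fold or more in 11, by 5-fold or more in 4 and by 10-fold or more in 2.

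**Figure D2:**
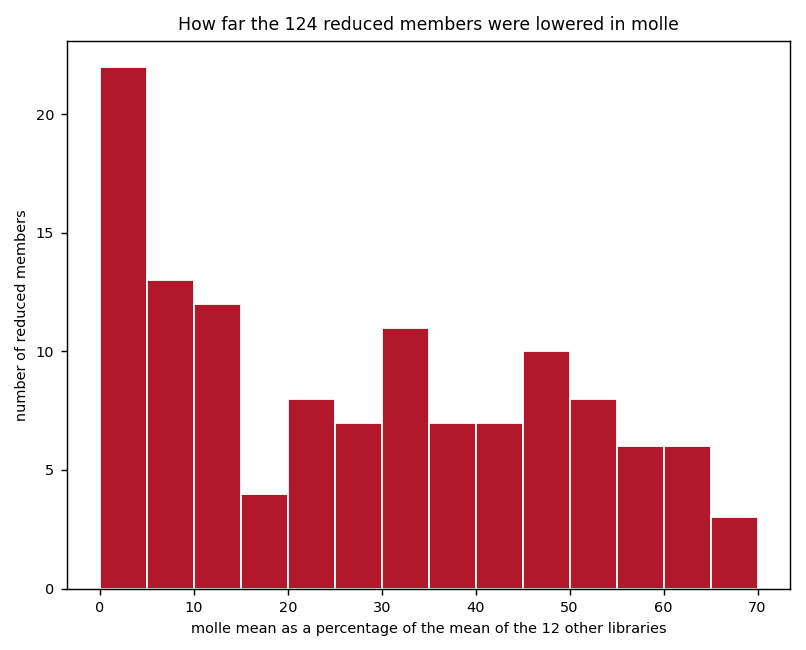
Number of reduced members (vertical axis) by the molle mean as a percentage of the mean of the 12 other libraries (horizontal axis, in steps of 5%). The tallest bar, 22 members, lies below 5%, and no member lies above 69.0%.

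Of the reduced members, Cluster-3823.46717 had the highest level. It stood at 64.8, 53.5, 83.3 and 27.2 CPM in molle, against 729, 330.0, 615 and 406 CPM in andalusicum, 276, 454, 152 and 192 CPM in marifolium and 1466, 370, 155 and 115 CPM in origanifolium. The 4 molle libraries were the lowest, and origanifolium held both the highest and the lowest of the rest, with both libraries of 1 code (31 and 33) above both of the other. The mean was 57.2 ± 23.5 CPM in molle (SD, n = 4) and 438 ± 374 CPM in the others (SD, n = 12), a 7.66-fold lower level in molle.

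Rank 2 in level stood at 87.2, 68.9, 96.8 and 51.0 CPM in molle, against 278, 142, 182 and 100.2 CPM in andalusicum, 213, 192, 340 and 119 CPM in marifolium and 167, 177, 111 and 185 CPM in origanifolium. Its highest molle library and its lowest other library, andalusicum 8, were nearly level. Rank 3 stood at 88.2, 77.3, 51.2 and 58.0 CPM in molle, against 183, 123, 125 and 114 CPM in andalusicum, 161, 136, 173 and 230.1 CPM in marifolium and 127, 100.4, 122 and 161 CPM in origanifolium. Its mean in molle was 2.13-fold lower.

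Ranks 4 and 5, transcripts of 1063 and 1140 nt, were modest reductions. Rank 4 averaged 90.1 ± 11.2 CPM in molle (SD, n = 4), against 143 ± 39.6 CPM in the others (SD, n = 12). Its highest molle library had 101.8 CPM and its lowest other library 102.4 CPM, so that its separation was smaller than the spread between libraries of either group. Rank 5 averaged 83.2 ± 10.2 CPM in molle and 143 ± 27.2 CPM in the others, with 97.2 CPM as its highest molle library and 101.7 CPM as its lowest other library.

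The members with the widest gap were nearly absent from molle. A transcript of 516 nt had 4 counts in the 4 molle libraries together, at 0, 0.0372, 0.0601 and 0.0348 CPM. It stood at 1.04, 22.7, 5.72 and 6.92 CPM in andalusicum, 52.3, 3.67, 7.67 and 26.0 CPM in marifolium and 36.7, 12.7, 6.27 and 2.47 CPM in origanifolium. Its lowest other library was 17.3 times its highest molle library, although the 12 others themselves ranged 50.4-fold.

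A transcript of 386 nt was second in gap, with 0.352, 0.334, 0.0901 and 0.0696 CPM in molle. It stood at 13.3, 5.77, 14.5 and 3.76 CPM in andalusicum, 32.4, 23.5, 32.0 and 18.7 CPM in marifolium and 5.64, 10.4, 16.7 and 9.58 CPM in origanifolium. Both libraries of the first molle code lay above both of the second, and marifolium lay above the other groups. Its mean in molle was 73.4-fold lower, at a gap of 10.7 times.

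Gap rank 3 had 3 counts in molle, at 0.0293 and 0.0743 CPM in libraries 22 and 25 and 0 in 27 and 29, against 0.658 to 8.65 CPM in the 12 others. Gap rank 4 had its molle counts, 24 of them, in library 25, at 0.892 CPM, and 0 in the other 3, against 23.5 ± 14.5 CPM in the others with a lowest value of 5.43 CPM. Gap rank 5, a transcript of 1096 nt, had 0.0879 and 0.174 CPM in molle 22 and 29 and 0 in molle 25 and 27, against 2.62 ± 2.33 CPM in the others. In these 3 members, detection in molle rested on 2, 1 and 2 of the 4 libraries.

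**Figure D3:**
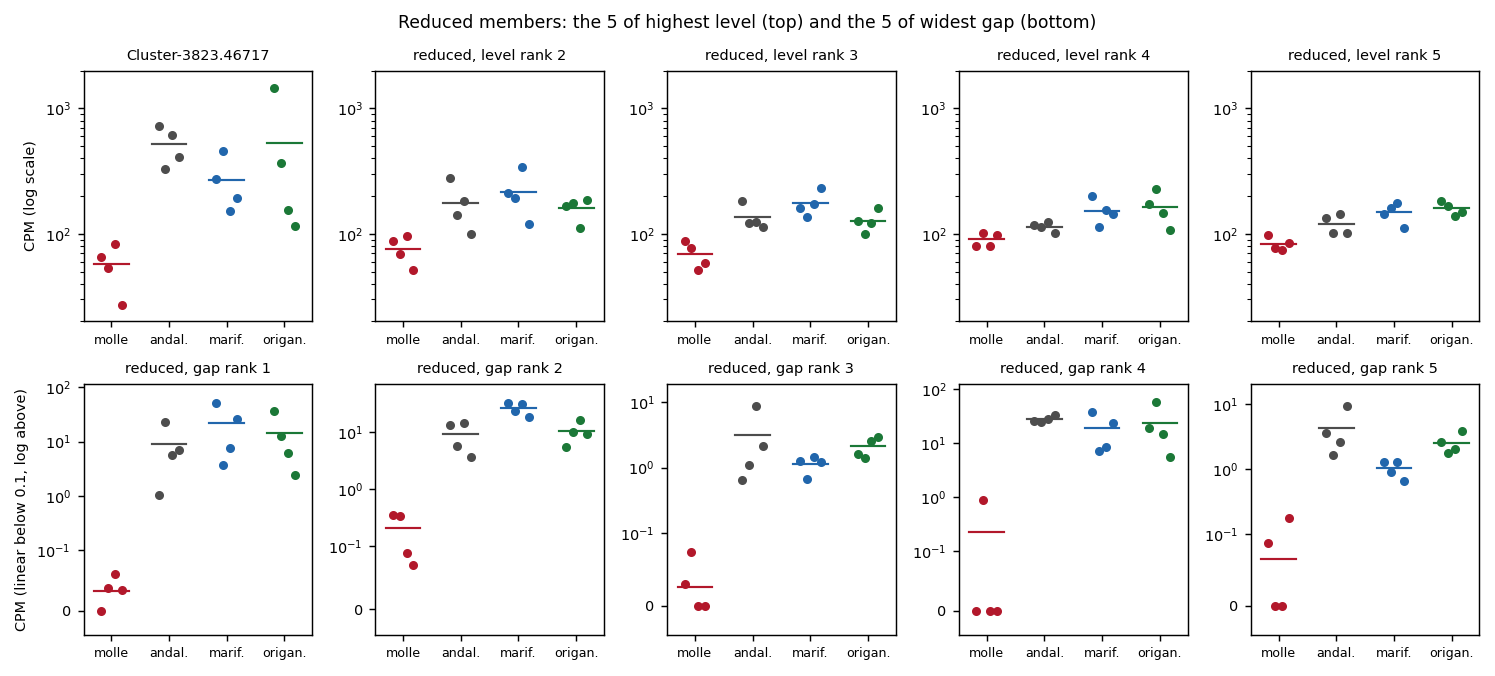
CPM in each library (points) and subspecies means (lines) for the 5 reduced members of highest level (top row, logarithmic axis) and the 5 with the widest gap between molle and the rest (bottom row, linear below 0.1 CPM and logarithmic above). In the top row the molle points lie below the others, narrowly for rank 4 at 101.8 against 102.4 CPM. For Cluster-3823.46717 the nearest points are further apart, at 83.3 against 115 CPM. In the bottom row the molle points lie at or near 0.

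In some members the line between absence and reduction depended on single reads. At least 1 molle library had 0 counts in 27 of the reduced members, 11 members had at most 10 counts over the 4 molle libraries, and 4 had at most 3. The cluster of level rank 84 had 1 count in molle, against 2017 in the others. By pooled CPM it was 717 times higher in the others, with an exact 95% Poisson interval of 129 to 28305 that covers counting error only. Its 12 other libraries ran from 0.104 to 16.8 CPM. For the transcript of 516 nt, with 4 counts in molle and 5245 in the others, the ratio was 466 (interval 182 to 1710).

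A test of molle against the mean of the other 3 subspecies used the same contrast as the rule, and its calls are given for orientation. It called 79 of the 136 members lower in molle, the 12 absent and 67 reduced ones (edgeR quasi-likelihood F-test, p under 0.05 after Benjamini-Hochberg adjustment). Over all 46027 clusters tested, 0.456% were called lower and 1.96% higher in molle. Without 1 of the molle libraries, 34 (without 22), 35 (25), 34 (27) and 35 (29) of the members were called. The shares of all clusters called lower fell as well, to 0.173%, 0.147%, 0.167% and 0.168%. With the 2 libraries of each code summed, 4 members were called, where 0.00876% of all clusters were called lower.

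Outside molle, the members were not one pattern. Marifolium had the highest mean in 55 members, origanifolium in 49 and andalusicum in 32, where over all clusters of this level with a count in the 12 others the shares were 31.7%, 32.5% and 35.8%. The next lowest mean after molle belonged to andalusicum in 55 members, to origanifolium in 46 and to marifolium in 35. Shares over all clusters are not given for this order. The highest of the 12 others exceeded the lowest by a median of 5.06-fold over members, beside 4.87-fold over all such clusters. This ratio was under 3 in 41 members and 10 or more in 41.

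**Figure D4:**
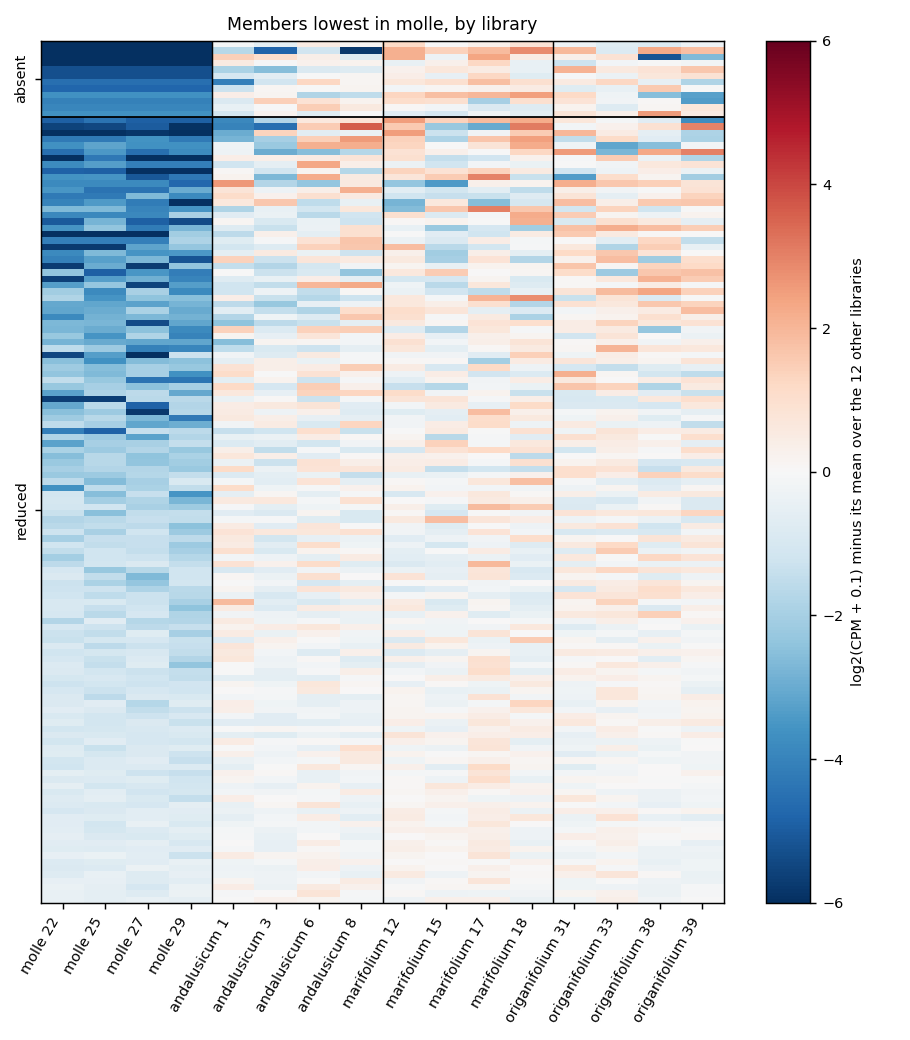
Members (rows, 12 absent above the line and 124 reduced below it, ordered from the strongest to the weakest reduction) by library (columns, molle at the left), coloured by log2(CPM + 0.1) minus its mean over the 12 other libraries, with colours saturating at 6 and -6. The molle columns are blue throughout and grow paler down the reduced members, while the 12 other columns mix red and blue in many members.

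A test compared andalusicum, marifolium and origanifolium with each other. Molle levels were not part of the contrast, but the molle libraries entered the filter and the estimate of the spread, and the rule used the lowest of the 12 others. It called 5 of the 136 members, 3.68%, near the 4.24% of all clusters tested (edgeR quasi-likelihood F-test, adjusted p under 0.05). These 5 are described because they were called. Of the 3 groups tested, andalusicum had the lowest mean in all 5, and the highest was origanifolium in 4 and marifolium in 1. The same split over all clusters called is not given, so these directions describe the 5 only.

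A transcript of 3786 nt stood at 14.8, 15.3, 21.6 and 25.8 CPM in molle, against 40.4, 46.7, 53.6 and 26.4 CPM in andalusicum, 52.5, 53.2, 65.9 and 84.7 CPM in marifolium and 141, 93.4, 187 and 150.0 CPM in origanifolium. The 4 groups formed a series, in which the lowest andalusicum library was close to the highest molle library and all origanifolium libraries lay above all others. Among the 3 subspecies other than molle, it differed at an adjusted p of 0.00649 (edgeR). It was called in 23 of 24 alternatives and lost its call with both libraries of a code added together (edgeR adjusted p = 0.174).

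The other 4 calls were weaker. Level rank 8 averaged 51.0 ± 1.85 CPM in molle, against 66.3 ± 7.74 CPM in andalusicum, 136 ± 22.7 CPM in marifolium and 107 ± 27.9 CPM in origanifolium (SD, n = 4 each, edgeR adjusted p among the last 3 = 0.0223). A transcript of 2546 nt averaged 15.2 ± 2.85 CPM in molle, against 19.6 ± 1.02 CPM in andalusicum, 36.7 ± 10.1 CPM in marifolium and 39.9 ± 6.15 CPM in origanifolium (edgeR adjusted p = 0.0225). Both had their andalusicum mean closest to that of molle and clearly higher means in the other groups. Level rank 8 kept its call in 17 of 24 alternatives, and the transcript of 2546 nt in 14 of 24.

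Level rank 32 averaged 2.16 ± 1.24 CPM in molle, against 8.14 ± 4.29 CPM in andalusicum, 32.4 ± 8.13 CPM in marifolium and 37.4 ± 10.6 CPM in origanifolium (SD, n = 4 each, edgeR adjusted p = 0.0435). Absent member 5, at 0 in molle, averaged 1.40 ± 0.778 CPM in andalusicum, 4.60 ± 1.45 CPM in marifolium and 10.03 ± 4.83 CPM in origanifolium (edgeR adjusted p = 0.0439). Level rank 32 kept its call in 8 of 24 alternatives, and absent member 5 in 6 of 24. The number of members called among the 3 subspecies was 1 without andalusicum 1, 3 or 6 (1.63% to 1.74% of all clusters). It was 2 without andalusicum 8, marifolium 12 or origanifolium 31, 38 or 39 (1.43% to 2.45%). It was 3 without molle 25 or 29, marifolium 18 or origanifolium 33 (1.76% to 2.82%). It was 4 without molle 22 or 27 or marifolium 17 (2.67% to 2.80%), and 7 without marifolium 15 (5.21%).

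The spread within molle was read in the 97 reduced members with counts in all 4 molle libraries. Their highest library exceeded their lowest by a median of 1.74-fold in molle. For the same members the medians were 2.03-fold in andalusicum, 2.13-fold in marifolium and 1.76-fold in origanifolium. The 27 reduced members without counts in at least 1 molle library give no finite ratio in molle. The comparison leaves them out and does not cover their spread. The rule also caps the highest molle library of each member. The molle ratio is therefore a description and does not show that the spreads are alike. The lowest molle library was 22 in 34 of the reduced members, 25 in 20, 27 in 32 and 29 in 38. Libraries tied without counts were credited to the first in this order. These numbers therefore favour the earlier libraries, molle 22 most, and do not rank the 4.

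Between the molle codes, the first had the higher mean in 75 reduced members and the second in 49. The same count over all clusters is not given, so this imbalance is not read as a trait of the members. Scaling also differed, with TMM factors of 1.07 and 0.892 for molle 22 and 25, against 0.934 and 0.927 for molle 27 and 29. In a test of the codes, 0 of the 124 were called (edgeR quasi-likelihood F-test, adjusted p under 0.05), where 0.00435% of all clusters tested were called, and 12 had an unadjusted p under 0.05. These 12 are 9.68% of the reduced members, beside 5.82% of all clusters tested. DESeq2 called 5 members, where it called 2.17% of all clusters, and edgeR with no filter on low counts called 4, where it called 0.256%. With 2 libraries a code, a p above the threshold does not show equal levels.

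Each molle library on its own kept clusters out of the set. With molle 22 left out, the rule chose 335 clusters, and molle 22 lay below all 12 others in 40.9% of them. With molle 25, 27 or 29 left out, the left-out library was below all 12 others in 66.5%, 53.7% and 59.6% of the clusters chosen. By library totals, molle 22 therefore overlapped the others most often in clusters that the rest of molle had at the low end. Scaled by edgeR's TMM factors instead, its share was 50.2%, close to the 51.1% of molle 27. The clusters counted by library totals are the set itself, with 1 more admitted by the mean over the other libraries. All these shares describe the rule and give no independent check of it. Over all clusters of 1 CPM or more, 4.13% (molle 22), 7.65% (25), 6.39% (27) and 8.13% (29) lay below all 12 others. Those clusters were not chosen for a high lowest value in the 12, and the shares are not a yardstick for the chosen ones.

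The choice was also made on 1 molle code and the clusters read in the other. Clusters chosen on the first code numbered 556, of which 14 were called lower and 0 higher in the second code than in the mean of the other 3 subspecies (edgeR quasi-likelihood F-test, adjusted p under 0.05), where 0.0617% of all clusters tested were called lower. Clusters chosen on the second code numbered 754, of which 14 were called lower and 2 higher in the first, where 0.0483% of all were called lower. DESeq2 called 121 and 135 of them lower, where it called 3.80% and 3.52% of all clusters tested lower. The same 12 other libraries made the choice and formed the comparison, and the choice favours clusters that are high in them. The shares over all clusters are therefore not what no change in molle would give, and the calls are a description only.

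For 41 members, the deposited list held other counted clusters under the same assembler gene name, here called partners. They are of use because reads of 1 gene can be divided between clusters. The 41 members had 85 partners, of which 4 were themselves members, and 44 of the 81 others reached 1 CPM. Of these 44, 33 (75%) had a lower mean in molle than elsewhere and 11 a higher one, beside 61.5% with a lower mean among all clusters of 1 CPM or more. The median partner stood in molle at 57.1% of the 12 others, beside 87.7% over all clusters of 1 CPM or more. Several of the 44 share a member, and a partner may share reads with its member. The values over all clusters are therefore not a yardstick for the partners.

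In 4 absent members the partners were also at or near 0 in molle. Absent member 6 had as its partner gap rank 3 of the reduced members, with its 3 molle counts, so that both clusters of this gene name were members. The partner of absent member 9 had 0 CPM in molle, against 1.09 ± 1.04 CPM in the others, and that of absent member 10, a transcript of 1370 nt, 0 CPM in molle against 0.652 ± 0.705 CPM. The partner of absent member 3 had 0 CPM in molle and reached at most 0.629 CPM elsewhere. For these 4 gene names, no partner held more than 0.0743 CPM in a molle library. The partners of absent members 3, 9 and 10 also had 0 CPM in some of the 12 others. That of absent member 3 held only 31 counts over all of these. The zeros of these 3 partners in molle therefore carry less weight than those of the members.

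Among reduced members with partners, the 5 of highest level showed partners lower in molle, each by less than or about as much as the member. Level rank 2, at 41.3% of the others in molle, had a partner at 26.1 ± 8.03 CPM in molle, against 61.7 ± 26.3 CPM in the others. The next, at 36.5 CPM in molle against 77.3 CPM, had partners at 59.6 ± 21.3 CPM against 69.1 ± 19.7 CPM, and at 46.7 ± 16.4 CPM against 70.4 ± 19.6 CPM. Then came a member at 14.4 CPM in molle against 70.3 CPM, with a partner at 4.16 ± 3.00 CPM in molle, against 11.99 ± 10.5 CPM. The one after it, at 24.7 CPM in molle against 46.9 CPM, had a partner at 56.9 ± 9.20 CPM in molle, against 84.6 ± 16.6 CPM. The last of the 5, at 27.6 CPM in molle against 44.4 CPM, had a partner of 936 nt at 33.0 ± 7.23 CPM in molle, against 38.8 ± 7.75 CPM. In each of these partners, the range of the molle libraries overlapped that of the other libraries.

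In a few reduced members the partner was the larger cluster and was about level or higher by its mean in molle, as seen after the values were known. One member at 0.371 CPM in molle against 7.72 CPM had a partner of 3900 nt at 50.8 ± 4.91 CPM in molle, against 54.4 ± 11.3 CPM in the others. A member at 1.22 CPM in molle against 4.65 CPM had a partner of 2559 nt at 174 ± 91.1 CPM in molle, against 129 ± 24.7 CPM in the others. For these names the summed level was set by the partner.

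In the test of molle against the mean of the other 3 subspecies, 2 of the 53 tested partners outside the set were lower in molle and 1 was higher (edgeR quasi-likelihood F-test, adjusted p under 0.05). Over all clusters 0.456% were lower and 1.96% higher, which for the reasons given above is not a yardstick for the partners. One that was lower stood at 2.09 ± 0.925 CPM in molle, against 8.28 ± 4.76 CPM in the others (edgeR adjusted p = 0.0258). The other was the partner of absent member 9 described above (edgeR adjusted p = 0.0322). The partner that was higher, of 369 nt, stood at 15.7 ± 7.75 CPM in molle, against 3.65 ± 5.76 CPM in the others (edgeR adjusted p = 0.00310), while the member of its name stood at 3.38 CPM in molle and 6.70 CPM in the others. Between 0 and 3 partners were called lower without 1 library, where 0.147% to 0.371% of all clusters were. EdgeR with no filter on low counts called 0, with 13 at an unadjusted p under 0.05, where 0.154% of all clusters were called lower. DESeq2 called 10, where it called 4.16% of all clusters lower.

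The 41 members fall under 39 gene names, since 2 names hold 2 members each. With the counts of all clusters of a name summed, 37 of the 39 names had a lower mean in molle and 2 a higher one. In 18 names the 4 molle libraries still lay below all 12 others. The median sum stood in molle at 34.3% of the others, beside 19.2% for the 41 members alone. The 2 names with a higher sum in molle are the one with the partner of 369 nt (119% of the others) and the one with the partner of 2559 nt (131%).

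**Figure D5:**
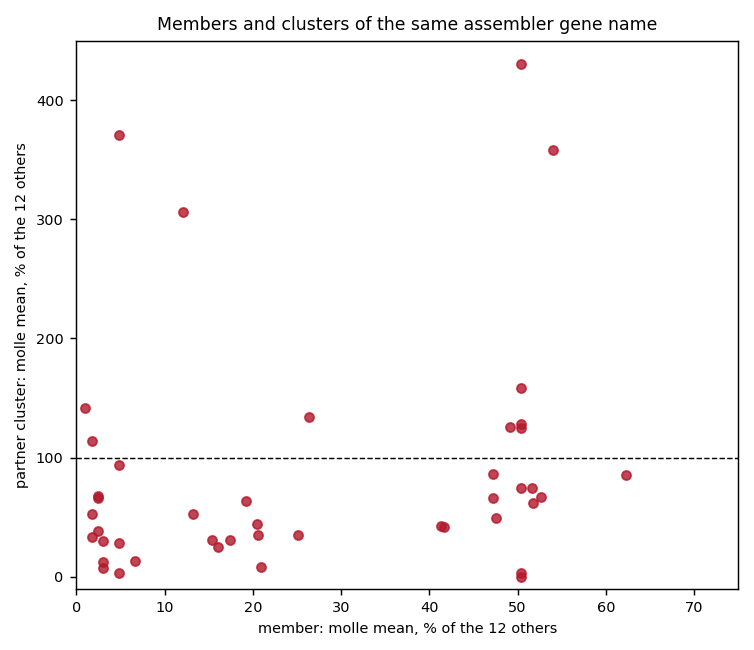
Each point is 1 of the 44 partner clusters of 1 CPM or more, placed by the molle mean as a percentage of the 12 others for its member (horizontal axis) and for itself (vertical axis), with 100% as a dashed line. Of the points, 33 lie below the line and 11 above it, and points in a vertical row share a member.

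The deposited list gives the make-up of the members. A single transcript made up 95.6% of the members, beside 95.2% of all clusters of 1 CPM or more. A transcript with its length in the name, in the form that Oases writes, was held by 63 members, or 46.3%, beside 38.5% of all such clusters. The median length was 1190 nt over these 63 members and 1462 nt over all. It was 692 nt in the 5 absent members with a length and 1215 nt in the 58 reduced ones. These shares were not tested.

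The choice of scaling moved the edge of the set but not its direction. Under edgeR's TMM factors the rule gave 113 members, 103 of them shared, and under DESeq2 size factors 128, with 111 shared. In all, 103 members, the 12 absent and 91 reduced, met the rule under all 3 scalings, and the 33 that did not had a lowest other library at most 1.21 times the highest molle library. All 124 reduced members had a lower mean in molle under each scaling. Over 21941 clusters with counts in molle and in all 12 others, the median log2 ratio of molle to the others was -0.12 by library totals, -0.03 by TMM and -0.06 by DESeq2 size factors, and the reductions above are larger than this shift, the weakest being 1.45-fold.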

How the data were processed

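Per the labels' protocols, poly-A RNA from adult leaves was sequenced in 16 libraries. The authors deposited raw counts per cluster of assembled transcripts and a list of 122009 transcript names with their clusters. Of these, 18108 stand under 1 name without counts and were left out. FastQC is among the tools per the submitters' processing notes. The sources used here name no assembler, aligner, counter or strandedness, so reads of paralogs, alleles or antisense transcripts may have been split or merged. All count columns were matched to libraries by title, and 0 were left unmatched.

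The counts were divided by library totals to give CPM, and the rule was applied to all clusters. The members, lists and tests were chosen with earlier results of these data known. Tests used edgeR 4.0.16 in R 4.3.3 (quasi-likelihood F-test after TMM scaling and filterByExpr by subspecies, with Benjamini-Hochberg adjustment over all tested clusters and a threshold of 0.05), with all 16 libraries and 1 mean for each subspecies, or for each of the 8 title codes. In the test from 1 molle code to the other, the 2 molle libraries used for the choice were left out of the fit. The filter kept 46027 clusters. DESeq2 1.42.0 and limma 3.58.1 were alternatives. Partners are clusters that share an assembler gene name held by at most 100 counted clusters.

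Members described singly were the 5 absent ones of highest mean over the 12 others, the 5 reduced ones of highest mean and the 5 of widest gap, the 3 clusters nearest to each threshold on either side, and the 5 members of highest mean that have partners. Other members described were picked after their values were seen, as said there. As no gene names are paired with clusters, identifiers were printed for the first absent and the first reduced member.

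The edgeR test was checked on simulated counts. For molle against the others, 54% of 8-fold and 68% of 64-fold decreases were recovered among 46025 clusters, and 7.33% of the calls were unchanged clusters. For the test among the other 3 subspecies, with marifolium changed, 44% of 8-fold and 72% of 64-fold decreases were recovered. Smaller changes were not simulated, so recovery at 3.78-fold, the median of the reduced members, was not measured.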

Additional observations from a re-analysis of the deposited data

Results flagged for a closer look

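Of 71 groups of 4 libraries looked at for members described singly, 3 held a library far from the rest of its group by Dixon's 95% criterion, the gap to the nearest library over the range of the group. Chance alone sets about 1 in 20 such groups apart. In the reduced member of level rank 3, andalusicum 1 stood at 183 CPM, with the other 3 andalusicum libraries between 114 and 125 CPM. In the reduced member of gap rank 4, molle 25 stood at 0.892 CPM, while molle 22, 27 and 29 had 0 counts, so the member counts as reduced through that library. In a reduced member that has a partner of 936 nt, andalusicum 6 stood at 56.5 CPM, with the other 3 andalusicum libraries between 33.9 and 35.2 CPM. The part of single libraries in these values was not tested.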

How the results depend on the processing

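No paired analysis was possible because no library number occurs in more than 1 subspecies. Without 1 library, the number of members ran from 150 to 335, of absent members from 12 to 26 and of reduced members from 136 to 314, since the rule then has fewer libraries to separate. Absent members numbered 19 with no filter on the mean and 19 without marifolium 12 and 18, where all members numbered 206 and reduced ones 187. Asking for a lowest other library of at least 1.5 times the highest molle library, an alternative chosen after seeing the data, left 39 members, 27 of them reduced.

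Of the members, 129 were called lower in molle by DESeq2 (4.16% of all clusters) and 46 without marifolium 12 and 18 (0.156%). With codes summed 4 were called (0.00876%), and without 1 library 34 to 72 (0.147% to 0.371%). Among the other 3 subspecies, DESeq2 called 28 members (12.0% of all clusters), limma voom, with title code as random block, 11 (7.47%), edgeR with no filter on low counts 2 (1.52%), the fit of the 12 libraries alone 8 (3.74%) and the fit without marifolium 12 and 18 called 1 (1.09%). Summed codes gave 0, with 16 at an unadjusted p under 0.05. Without 1 library 1 to 7 were called, where 1.43% to 5.21% of all clusters were. Of the 5 calls described, the adjusted p without 1 library ran from 0.00577 to 0.0265 for the transcript of 3786 nt and up to 0.0709, 0.0721, 0.0946 and 0.108 for level rank 8, the transcript of 2546 nt, level rank 32 and absent member 5 (edgeR).

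Partners called lower in molle numbered 10 by DESeq2 (4.16% of all clusters), 1 by voom (0.482%) and 1 with at least 1 CPM in 8 libraries (0.742%). They numbered 1 without marifolium 12 and 18 (0.156%) and 0 to 3 without 1 library (0.147% to 0.371%). They numbered 0 with no filter (0.154%, 13 at an unadjusted p under 0.05) and 0 with codes summed (0.00876%, 8 at that p). Partners called higher numbered 2 by DESeq2 (3.66% of all clusters), 2 by voom (2.71%) and 0 with codes summed (0.0613%, 4 at an unadjusted p under 0.05). They numbered 1 without any 1 library (0.841% to 1.72%). They numbered 0 with gene names of at most 10 clusters, an alternative chosen after seeing the data that drops the name. Between the molle codes, DESeq2 called 5 members and edgeR with no filter 4. From 1 molle code to the other, DESeq2 called 121 (chosen on the first code) and 135 (chosen on the second). Under TMM scaling, the share of clusters also lowest in the molle library left out was 50.2% for molle 22 and 59.4% for molle 25. It was 51.1% for molle 27 and 59.1% for molle 29, so molle 22 was then close to molle 27. With the clusters of a gene name summed, 125 features met the rule, 12 of them absent, and 2 members had a higher sum in molle than in the others (119% and 131%), through their partners. No other called result changed its direction, and the cause of the other changes was not tested. Members near 1 CPM are limited by depth, since a library floor of 3 counts is 0.0879 to 0.135 CPM.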

Other observations

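Some members varied together over the 12 libraries outside molle. Members were grouped by average linkage on 1 minus Pearson's r of log2(CPM + 0.1) over these 12 libraries, at a distance of 0.4, and 3 groups reached 8 members. The groups were defined from these values and carry no test, and all libraries share their depth between members. Over all pairs of members the median r was 0.06, with a 5th to 95th percentile of -0.51 to 0.60.

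The first group, of 10 members with a median r of 0.70, was high in origanifolium. Relative to each member's mean over the 12 libraries, the group averaged 0.79, 0.86, 1.53 and 0.92 on the log2 scale in origanifolium 31, 33, 38 and 39, and between -0.74 and -0.18 in the 8 libraries of andalusicum and marifolium. The second group, of 8 members with a median r of 0.71, was low in andalusicum, at -1.30, -1.35, -0.80 and -0.47 in libraries 1, 3, 6 and 8, and lay between -0.02 and 0.85 in marifolium and origanifolium. In both groups the subspecies with the extreme level held it in all 4 of its libraries on average.

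The third group, of 8 members with a median r of 0.76, followed single libraries and not subspecies. It was high in andalusicum 1 and 6 (0.82 and 0.93) and in origanifolium 31 and 33 (0.63 and 0.90). It was low in andalusicum 3 (-0.70), marifolium 15 and 18 (-1.21 and -0.69) and origanifolium 38 (-1.35). Libraries of the same title code fell on opposite sides in andalusicum (1 and 3) and in origanifolium (38 and 39, the last at 0.44).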
